A study of Mus musculus with 6 samples.

Results

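Cell cycle genes were followed across the leukocytes of normal and leukaemic mouse lungs. They are 34 of the 32285 genes in the deposited count matrices. All 34 were found by symbol, and they were chosen as known S phase and mitosis genes, not from their values. By role, 11 serve DNA replication, 3 are histone genes, 17 act in mitosis, and 3 (Stmn1, Hmgb2 and Tuba1b) are higher in dividing cells but are also used by cells that do not divide.

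A dividing cell copies its DNA in S phase and separates the copies in mitosis. S phase needs the MCM helicase, the sliding clamp Pcna, enzymes that make DNA precursors, and new histones. Mitosis needs cyclins A and B, the kinase Cdk1, the Aurora and Polo kinases, and motor and spindle proteins, most of which are made in G2 and destroyed as division ends. In the lung, alveolar macrophages can renew themselves by division in place. Neutrophils, and most monocytes, arrive from the bone marrow after their last division.

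CD45-positive cells were isolated on magnetic beads from digested, perfused lungs, and libraries were made with the 10x Genomics 3' kit v3.1. There were 3 libraries of normal lung and 3 of lung with acute myeloid leukaemia (AML) infiltration. The labels give no strain, age, sex, leukaemia model or time, do not say which cells are leukaemic, and do not say whether the 3 libraries of a group are 3 animals, so p-values measure the spread between these libraries. Ptprc, which encodes CD45, had a UMI (a counted RNA molecule) in 85.9% to 99.4% of cells per library.

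The libraries held 43913245 to 66513826 UMIs, spread over 3967 to 35391 cell barcodes. AML replicate 3 stood apart: its median was 1067 UMIs per barcode, against 2740 to 9381 in the other 5. After filters, 70289 cells were used. Cells were put into classes by fixed marker genes (gating), and 53.4% of the cells of AML replicate 3 could be gated, against 74.6% to 93.7% in the others. Pairs of libraries shared 2 to 118 barcodes, at most 1.13% of the smaller library.

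The start regions of some members that carry the results below are shown first, because S phase and mitosis genes are known to be driven by different sequence elements. S phase genes commonly hold E2F sites. Mitotic genes commonly hold a CHR element next to CCAAT boxes. The windows are the 150 bases before the RefSeq start (GRCm38.p6), on the gene's strand, and none overlapped a gene of GENCODE vM21. Capitals mark the CCAAT box, the E2F words TTTCCCGC, TTTGGCGC and TTTCGCGC, and the CHR element, which was searched as the letters TTTGAA. Each was searched on both strands. Overlapping E2F words were joined.
Mki67, chr7:135716380-135716529, minus strand: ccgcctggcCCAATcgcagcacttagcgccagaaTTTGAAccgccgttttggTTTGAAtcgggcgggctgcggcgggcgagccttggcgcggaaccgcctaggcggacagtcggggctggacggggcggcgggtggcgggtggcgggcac
Top2a, chr11:99024190-99024339, minus strand: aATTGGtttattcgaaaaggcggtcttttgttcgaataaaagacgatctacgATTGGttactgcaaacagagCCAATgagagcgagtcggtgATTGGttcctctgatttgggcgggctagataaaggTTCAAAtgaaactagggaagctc
Mcm5, chr8:75109359-75109508, plus strand: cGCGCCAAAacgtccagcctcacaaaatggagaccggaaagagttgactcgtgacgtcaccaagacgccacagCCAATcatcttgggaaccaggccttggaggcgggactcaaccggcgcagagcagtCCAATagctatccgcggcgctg
Mcm6, chr1:128359706-128359855, minus strand: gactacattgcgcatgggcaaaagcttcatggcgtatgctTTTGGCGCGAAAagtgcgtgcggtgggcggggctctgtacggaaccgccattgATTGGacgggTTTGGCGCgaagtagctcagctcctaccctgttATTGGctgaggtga

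The Mki67 window held 2 CHR matches and the Top2a window 1, with 1 and 4 CCAAT matches. The Mcm5 window held 1 E2F match and the Mcm6 window 3, and neither held a CHR match. Windows of the same length for other members, not printed, did not all split this way. Those of Pclaf and Rrm2 held no E2F match, that of Ccnb2 no CHR match, and that of Hist1h1b neither. Those of Birc5 and Tyms held no match of any kind. The Cdk1 window held 2 CHR matches and 1 E2F match, and the Ube2c window 1 CHR match. Over the full RefSeq windows of 250 bases before to 50 after the start, which were found for 28 of the 34 members, CHR was in 10 of 14 mitosis members and 1 of 10 replication members, against 20.2% of all 27025 genes. E2F words were in 5 of 10 replication members and 1 of 14 mitosis members, against 2.12% of all genes. CCAAT was in 9 of 10 replication and 12 of 14 mitosis members, against 41.1% of all genes. Letters alone do not show binding.

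To find cells in cycle, each cell was thinned at random to 1000 UMIs, so that all cells had the same depth. A cell was called cycling if it then held at least 3 UMIs of the 31 members outside the broad group. Of 50426 cells with enough UMIs, 1550 were called, 305 of them at exactly 3 UMIs, while 1128 cells stood just below, at 2. The call is thus a cut through a range of values, not a separate cell type. Cells under 1000 UMIs were left out: 54.2% of the cells of AML replicate 3 reached that depth, against 78.3% to 99.7% in the others.

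Neutrophils give the level to read the other classes against, since mature neutrophils do not divide. In the 3 normal libraries 0 of 487, 0 of 405 and 0 of 463 neutrophils were cycling, which allows shares of up to 0.616%, 0.741% and 0.648%. In AML the shares were 0 of 340 (up to 0.882%), 0.144% (exact Clopper-Pearson 95% interval 0.00364% to 0.799%) and 1.56% (1.05% to 2.24%). Only AML replicate 3 was above 1%, and there a share of about that size in another class is not above this background. These intervals cover counting error only.

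The cycling share differed widely between classes. Classical dendritic cells of type 1 (cDC1, which present antigen to CD8 T cells) had the highest share of the 8 classes plotted in every library but AML replicate 3, where T cells were higher. Their shares were 12.5%, 16.1% and 6.76% in normal and 16.0%, 11.8% and 14.9% in AML lungs, from 24 to 114 cells each. Alveolar macrophages and T cells followed at 5.11% to 7.39% and 4.78% to 5.04% of cells in the normal libraries. NK cells came next at 2.65% to 4.28%. B cells (0.209% to 0.611%), nonclassical monocytes (0% to 0.294%) and classical monocytes (0% to 0.846%) were near the neutrophils in normal lungs. In the plot of shares by class and library, the intervals of cDC1 overlap those of T cells and alveolar macrophages in normal lungs.

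**Figure D1:**
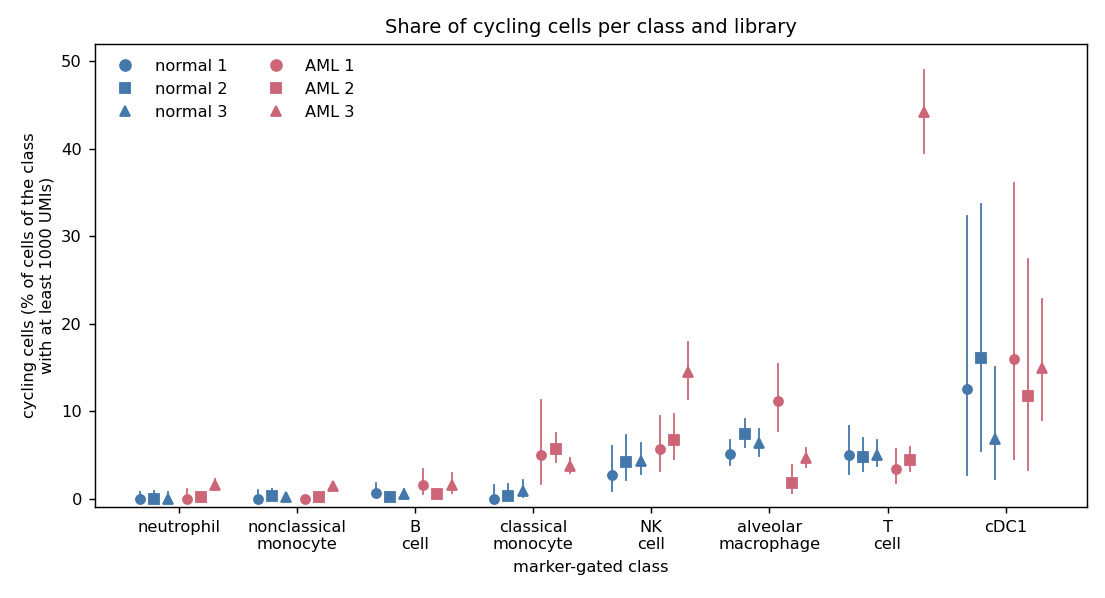
Share of cycling cells (percent of cells of a class with at least 1000 UMIs, y axis) for 8 marker-gated classes (x axis). Each point is 1 library, blue for normal and red for AML, with its exact 95% interval as a bar. T cells of AML replicate 3 sit at 44.3%, and classical monocytes of all 3 AML libraries sit between 3.67% and 5.63%, above the normal libraries.

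Without thinning, the same rule gave 31.9% to 76.3% for alveolar macrophages and 18.3% to 39.6% for T cells of normal lungs, because deep cells reach 3 UMIs more easily. Those shares depend in part on depth and are not compared further.

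Single members, read without any cut, again set cDC1, T cells, alveolar macrophages and NK cells above neutrophils. Their order differed from that of the shares, with T cells above alveolar macrophages in each normal library. Mki67, the proliferation antigen Ki-67 that coats mitotic chromosomes, was measured as its UMIs per 1000000 UMIs of a class (CPM). In alveolar macrophages it stood at 75.03, 92.3 and 77.5 CPM in normal and at 148, 42.7 and 57.1 CPM in AML. T cells held 140, 158 and 127 CPM in normal and 114, 47.1 and 299 CPM in AML libraries. In cDC1 the range was 128 to 256 CPM and in NK cells 33.7 to 138 CPM, while neutrophils held 6.31 to 20.5 CPM. All 4 classes were above the neutrophils of their own library in 6 of 6 libraries, with mean differences of 70.7 (alveolar macrophages), 136 (T cells), 203 (cDC1) and 73.4 CPM (NK cells). In the exact two-sided sign-flip permutation test over the 6 libraries each of these gave p = 0.03125, the smallest it can give, and 0.0547 after Benjamini-Hochberg adjustment over 14 comparisons.

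Pclaf, a clamp-binding factor of replication forks, ordered the classes alike. It stood at 66.0 to 179 CPM in cDC1, 47.5 to 302 in T cells, 23.0 to 79.8 in NK cells and 22.7 to 85.6 in alveolar macrophages, against 0.371 to 5.99 in neutrophils. These 4 classes were again above neutrophils in 6 of 6 libraries (exact permutation p = 0.03125, adjusted 0.0547). For both genes the neighbours NK cells and alveolar macrophages overlapped, as did T cells and cDC1. Classical monocytes exceeded neutrophils in 3 of 6 libraries for Mki67 and 5 of 6 for Pclaf (exact permutation p = 0.25 and p = 0.125). For Mki67 those 3 were the AML libraries, and the test takes both groups together.

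**Figure D2:**
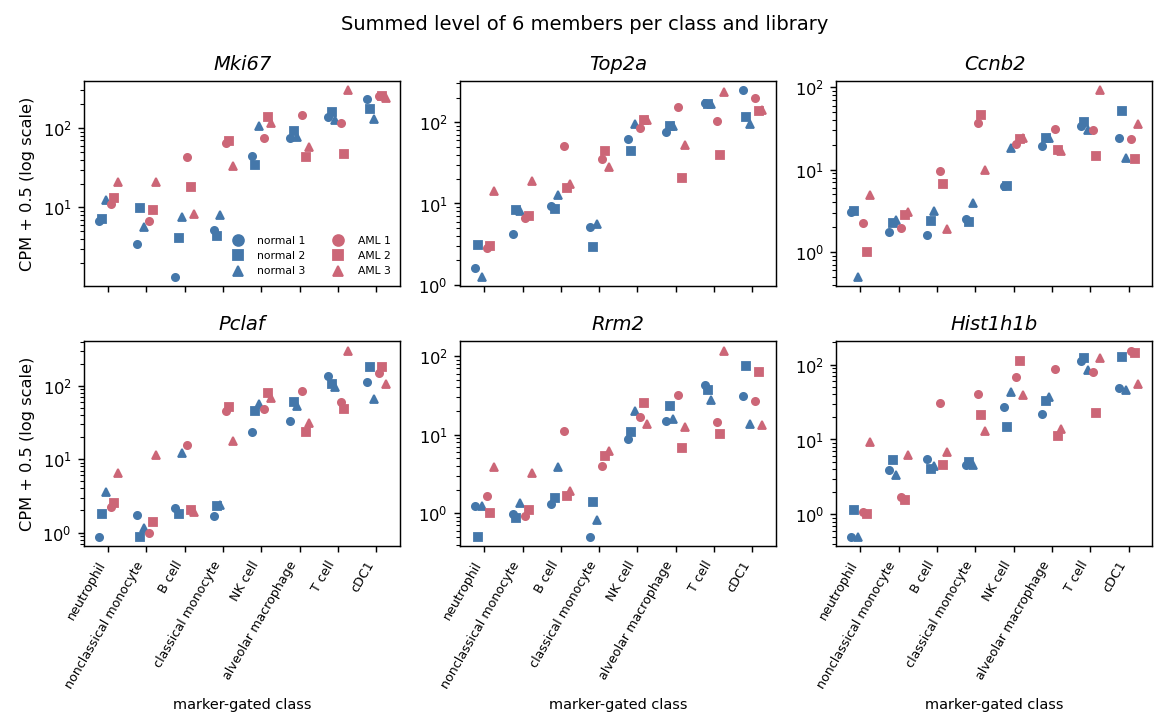
Level of Mki67, Top2a, Ccnb2, Pclaf, Rrm2 and Hist1h1b (CPM plus 0.5, log y axis) in 8 classes (x axis). Each point is 1 library. Classical monocytes split by group, with normal Mki67 at 3.89 to 7.60 CPM and AML at 33.1 to 68.4 CPM.

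Classical monocytes were the 1 class of 10 tested in which members passed the test between AML and normal libraries. They are the Ly6c2- and Ccr2-expressing cells that enter tissue from blood. Of 34 members, 21 rose in AML lungs and 0 fell. They were called by edgeR's quasi-likelihood test at a Benjamini-Hochberg adjusted p under 0.05 over all genes. Over all 10186 genes tested in this class, 1.63% rose, 0.776% fell and 2.41% changed in either direction. The median log2 change was 2.43 over the 31 members tested and 0.02 over all genes, and all 31 estimates were above 0. A member could pass the filter on low counts through the AML libraries alone. The median and the signs thus describe the tested members and support nothing further.

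Among the replication members 6 of 11 rose. Pclaf was at 1.17, 1.80 and 1.90 CPM in normal and 45.0, 51.7 and 17.1 CPM in AML libraries. The lowest AML library was thus well above the highest normal one, and the log2 change was 4.50 (SE 0.49, edgeR adjusted p = 0.00798). Rrm2, a subunit of ribonucleotide reductase, went from 0, 0.898 and 0.317 CPM to 3.55, 4.92 and 5.71 CPM, which is 3.49 on the log2 scale (SE 0.66, edgeR adjusted p = 0.0339). Its normal values rest on 0, 3 and 1 UMIs.

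Tyms, which makes the thymidine nucleotide, rose from 0.583 to 2.22 CPM in normal libraries to 5.92 to 8.29 CPM in AML. Mcm5 and Mcm6, helicase subunits whose start regions are printed above, stood at 1.497 to 2.62 and 2.40 to 3.49 CPM in normal libraries. In AML they stood at 5.71 to 16.6 and 8.37 to 8.88 CPM (log2 changes 2.22, SE 0.47, and 1.498, SE 0.29). Rrm1, the other reductase subunit, rose by less, with a log2 change of 1.35 (SE 0.25). Each of these was higher in all AML than in all normal libraries.

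Pcna, which also serves DNA repair and is found in resting cells, was at 51.6, 53.6 and 52.6 CPM in normal and 58.6, 66.3 and 64.9 CPM in AML libraries. Its log2 change of 0.26 (SE 0.13) did not pass the test (edgeR adjusted p = 0.264). Mcm2, Mcm3, Mcm4 and Mcm7 did not pass it either, with log2 changes from 0.73 to 1.60. These estimates all lay above 0.

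Of the 3 histone members, Hist1h1b (linker histone H1.5) and Hist1h2ae (an H2A) rose. Hist1h1b stood at 4.08, 4.49 and 4.12 CPM in normal and 39.7, 20.9 and 12.4 CPM in AML libraries (log2 change 2.43, SE 0.42, edgeR adjusted p = 0.0257). Hist1h2ae went from 3.49 to 10.5 CPM to 25.5 to 35.5 CPM. Hist1h2ap, also an H2A, held 35.0, 21.3 and 1.90 CPM in normal and 56.9, 132 and 33.9 CPM in AML, so the groups overlapped and it did not pass. Histone H2A genes are near-identical copies and most of their RNAs lack the poly(A) tail this kit captures, so their levels are uncertain.

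Of the 17 mitosis members 12 rose. Top2a, the topoisomerase that untangles chromosomes, was at 4.67, 2.40 and 5.07 CPM in normal and 34.3, 43.9 and 27.6 CPM in AML libraries. Its log2 change was 3.11 (SE 0.29) and its adjusted p the smallest of the members (edgeR adjusted p = 0.00577). Mki67 held 4.67, 3.89 and 7.60 CPM against 65.1, 68.4 and 33.1 CPM, which is 3.34 on the log2 scale (SE 0.34, edgeR adjusted p = 0.00798). For both, the groups were far apart, with AML replicate 3 the lowest of the AML libraries.

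Ube2c, the ubiquitin-conjugating enzyme of the anaphase-promoting complex, went from 1.17, 2.40 and 4.12 CPM to 46.2, 73.0 and 17.3 CPM (log2 change 4.14, SE 0.59). Ccnb2, a B-type cyclin, went from 2.04, 1.80 and 3.49 CPM to 36.7, 45.2 and 9.39 CPM (log2 change 3.60, SE 0.60). Birc5 (survivin, of the chromosomal passenger complex) went from 0, 1.20 and 3.80 CPM to 26.6, 37.2 and 9.80 CPM (log2 change 3.87, SE 0.75). In these 3 genes AML replicate 3 was again lowest but above every normal library.

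Cdk1, Ccna2 (cyclin A2), Cenpe and Cenpf (kinetochore proteins), Nusap1 and Prc1 (spindle proteins) and Tpx2 (which activates Aurora A) also rose, with log2 changes from 2.80 to 4.45. Their AML values ran from 3.06 to 29.4 CPM and their normal values from 0 to 4.75 CPM. Aurka (log2 change 1.14, SE 0.32) and Aurkb (0.95, SE 0.39), the Aurora kinases, did not pass. Ccnb1, Cdc20 and Plk1 were too low to be tested: their normal libraries held 0, 0 and 4, then 0, 0 and 2, then 0, 0 and 1 UMIs, and AML libraries 18, 64 and 8, then 16, 58 and 9, then 11, 37 and 8.

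In the broad group only Stmn1, which takes microtubules apart, rose. It stood at 1.75, 2.40 and 8.24 CPM in normal and 70.5, 73.7 and 35.3 CPM in AML libraries (log2 change 3.84, SE 0.48, edgeR adjusted p = 0.0134). Hmgb2, a chromatin protein, held 306 to 351 CPM in normal and 360 to 637 CPM in AML libraries (log2 change 0.71, SE 0.20, edgeR adjusted p = 0.0927). Tuba1b, an alpha-tubulin with close paralogs, held 69.4 to 78.0 and 86.9 to 109 CPM (log2 change 0.42, SE 0.13, edgeR adjusted p = 0.116). Both were higher in all AML libraries but neither passed.

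**Figure D3:**
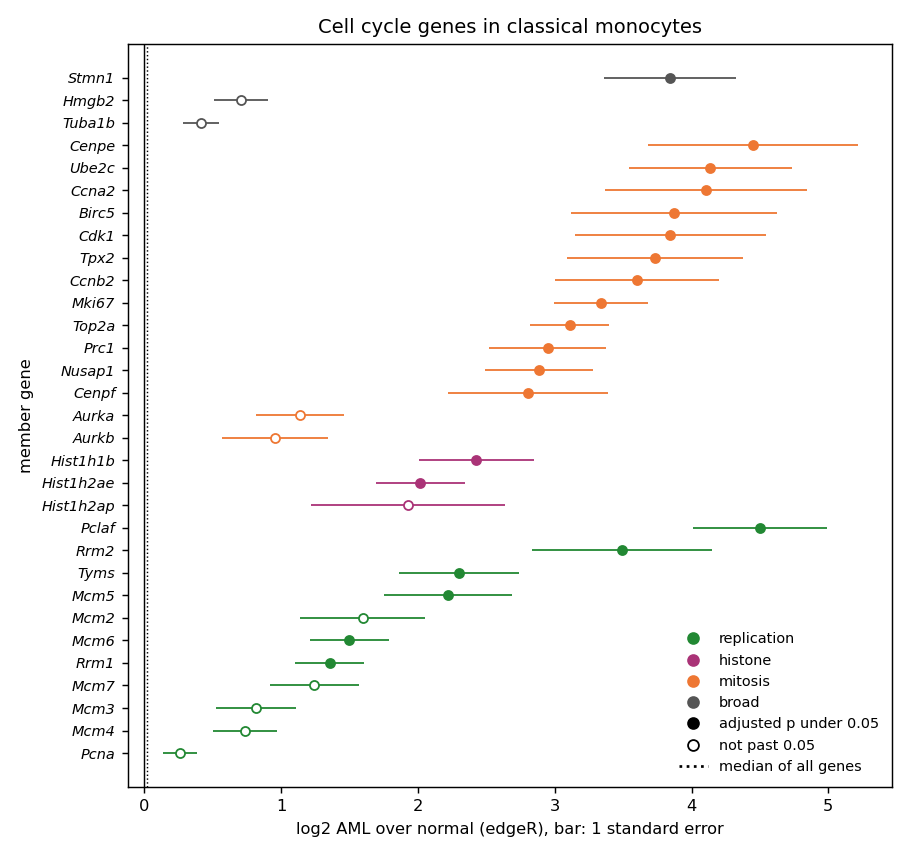
Log2 change of AML over normal (x axis, bars 1 standard error of edgeR) for the 31 members tested in classical monocytes (y axis), coloured by role. Filled points passed an adjusted p of 0.05, and the dotted line is the median of all genes at 0.02. Mitosis members reach 4.45, while Pcna, Tuba1b and Hmgb2 lie under 1.

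By cell, 5 of 100, 45 of 800 and 74 of 2017 classical monocytes were cycling in AML libraries, or 5% (exact 95% interval 1.64% to 11.3%), 5.63% (4.13% to 7.45%) and 3.67% (2.89% to 4.58%). In normal libraries it was 0 of 233 (which allows up to 1.29%), 0.311% (0.00786% to 1.72%) and 0.846% (0.231% to 2.15%). The groups did not overlap, with means of 4.76% ± 0.999 (SD, n = 3) and 0.385% ± 0.428 (SD, n = 3). In AML replicate 3 the neutrophils stood at 1.56%, at a median of 1410 UMIs against 1681 in the monocytes.

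Markers of immature myeloid cells (Mpo, Elane, Prtn3, Ctsg, Ms4a3, Cd34 and Kit) moved with this result. Their summed level in the class was 21.0, 19.8 and 20.6 CPM in normal and 352, 243 and 107 CPM in AML libraries. All 7 were detected in AML replicates 2 and 3. Kit was at 0 in AML replicate 1, Ms4a3 in normal replicates 1 and 2, Elane in normal replicates 2 and 3, and Mpo in normal replicate 3. In AML replicate 2 the list stood at 439 CPM in the cycling and 229 CPM in the other monocytes, and in AML replicate 3 at 529 and 91.3 CPM. Among the cycling monocytes Kit was at 0 in AML replicate 2, and Ms4a3, Cd34 and Kit in AML replicate 3. The list of later neutrophil precursors (Ngp, Camp, Ltf and others) stood at 99.99 to 144 CPM in normal and 189 to 211 CPM in AML.

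Markers of other classes were high in the monocytes of AML replicate 3. The neutrophil list stood at 858 CPM there, against 324 to 439 CPM in the normal and 366 and 371 CPM in the other AML libraries. The B cell list stood at 203 CPM against 13.7 to 69.7 CPM in the other 5, and the alveolar macrophage list at 171 against 3.55 to 33.3 CPM. In the cycling and the other monocytes of that library the alveolar macrophage list held 471 and 171 CPM, the T cell list 169 and 65.5 CPM, and the NK cell list 174 and 83.6 CPM, while the B cell list held 34.9 and 203 CPM. Their part in the result was not tested.

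A UMI of Mpo, Elane, Prtn3, Ctsg or Ms4a3 was in 73.0%, 49.4% and 11.6% of AML monocytes and in 7.41% to 18.8% of normal ones. Of the cells with one, 6.85%, 7.41% and 13.2% were cycling in AML, and 0 of 44, 0 of 37 and 0 of 44 in normal libraries. Of those without one, 0 of 27, 3.53% and 2.08% were cycling in AML and 0%, 0.351% and 0.932% in normal libraries. Without these cells 20 members passed the filter and 1 rose, Mki67, with a log2 change of 2.29 (edgeR adjusted p = 0.0341), against 0.258% of 9676 genes. The median of the tested members was then 0.98 and 20 of 20 estimates were above 0, which, given the filter, supports nothing further. Leaving such cells out also leaves out more cells of deep libraries.

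In every fit all estimates in tested members stayed above 0, but the fits share libraries. A member could also pass the filter on low counts through the AML libraries alone, so the signs add no support. The number of calls hung on single libraries. Without normal replicate 1, 2 or 3 it was 0, 1 and 6, against 0.0190%, 0.0378% and 0.199% of all genes. Without AML replicate 1, 2 or 3 it was 9, 5 and 30, against 0.755%, 0.385% and 6.54% of all genes. With predicted doublets kept it was 10, against 0.994%. When the class was taken from clusters 7 of 24 rose, against 1.69% of 10623 genes, and cycling shares were then 2.53%, 3.75% and 0.756% in AML against 0%, 0.209% and 0% in normal libraries. Predicted doublets were 3.73% of cycling and 0.832% of other monocytes before they were left out. What part precursors, leukaemic cells or doublets have in the difference was not tested.

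Other cell cycle genes, taken from lists chosen by function, gave fewer calls in classical monocytes, and no test of that difference was made. Of 15 further mitosis genes 11 were tested and 3 rose: Kif11 (a spindle motor, log2 change 3.21, SE 0.63), Cdca8 (a passenger protein, 4.34, SE 0.77) and Knl1 (a kinetochore scaffold, 2.17, SE 0.44). Of the licensing genes Gmnn rose (1.32, SE 0.21), and of the replication genes Lig1, the ligase that joins DNA fragments (2.15, SE 0.44). Of the CDK inhibitors Cdkn2d rose (0.92, SE 0.15), and of the growth factor receptors Csf2rb (0.57, SE 0.12). No gene of these lists fell. The D-type cyclins, which start the cycle, did not pass, with Ccnd2 at 1.45 (SE 0.78), Ccnd3 at -0.82 (SE 0.43) and Ccnd1 at -0.63 (SE 0.60), nor did the inhibitors Cdkn1a (0.07, SE 0.22) and Cdkn1b (-0.09, SE 0.15).

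In NK cells, cytotoxic lymphocytes, no member passed. The summed level of the 31 members outside the broad group was 759, 716 and 1127 CPM in normal and 1023, 2092 and 1366 CPM in AML libraries, so the groups overlapped. Of the sum in AML replicate 2, histone members held 934 CPM, against 90.0 to 310 CPM in the other 5 libraries. The cycling shares were 2.65%, 4.15% and 4.28% in normal and 5.71%, 6.75% and 14.4% in AML libraries, and these did not overlap. Hist1h1b held 26.9, 14.2 and 41.9 CPM in normal and 67.7, 111 and 39.0 CPM in AML (log2 change 1.45, SE 0.41, edgeR adjusted p = 0.176). Mki67 held 43.5, 33.7 and 104 CPM against 75.5, 138 and 114 CPM (log2 change 0.89, SE 0.38, edgeR adjusted p = 0.296). Normal replicate 3 lay within the AML range for Mki67, and AML replicate 3 within the normal range for Hist1h1b. In the NK cells of AML replicate 3, which had the highest share, the neutrophil list stood at 461 CPM against 168 to 325 CPM in the other 5 libraries, and the B cell list at 133.5 against 7.68 to 57.0 CPM. Their part in the result was not tested.

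Of 31 members tested in NK cells, 0 were called by edgeR's test and 0 by DESeq2, 14 had an unadjusted p under 0.05 and 28 estimates were above 0. An unadjusted p under 0.05 was also found for 15.5% of all genes tested there. Over all 9486 genes 0.0633% rose and 0.0105% fell (0.0738% in either direction). The smallest adjusted p was that of Mcm7, a helicase subunit, at 16.6, 20.1 and 18.6 CPM in normal and 31.2, 35.8 and 25.7 CPM in AML libraries (log2 change 0.83, SE 0.22, edgeR adjusted p = 0.172). Without the filter on low counts 13 of 34 rose, against 3.002% of 18419 genes. The inhibitor Cdkn1a did not pass either, at 1.51 on the log2 scale (SE 0.49, edgeR adjusted p = 0.212).

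In T cells 1 library stood apart. In 5 libraries 3.35% to 5.04% of T cells were cycling, and in AML replicate 3 193 of 436, or 44.3% (exact 95% interval 39.5% to 49.1%). In that library Mki67 was at 299 CPM against 47.1 to 158 CPM in the others, Pclaf at 302 against 47.5 to 136, Stmn1 at 394.5 against 72.3 to 166, and Rrm2 at 118 against 9.58 to 42.5. AML replicate 3 was the highest library for each of these 4. The neutrophils of AML replicate 3 stood at 1.56% by the same rule. That share does not bound errors of gating in T cells.

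Markers of other cell types were also high in the T cells of AML replicate 3. The summed level of 8 NK cell markers was 665 CPM there, against 79.6 to 152 CPM in the T cells of the other 5 libraries. The 7 neutrophil markers summed to 394 against 57.1 to 107 CPM, the 7 B cell markers to 123 against 9.97 to 54.4 CPM, the 10 alveolar macrophage markers to 104.5 against 12.3 to 19.6 CPM, and the 5 nonclassical monocyte markers to 171 against 3.61 to 33.8 CPM. All 8 NK cell and all 7 neutrophil markers were detected, while Siglecf, of the alveolar macrophage list, was at 0. Within that library the NK cell list stood at 1051 CPM in cycling and 349 CPM in other T cells, the B cell list at 116 and 146 CPM, and the T cell list at 4375 and 3493 CPM. Their part in the result was not tested.

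The share depended on the cells counted: it was 25.7% with all 701 gated T cells thinned to 500 UMIs, 54.8% of the 157 cells with 2000 UMIs, and 28.8% with T cells taken from clusters. The other 5 libraries held 2.58% to 3.81%, 4.17% to 6.74% and 2.64% to 5.31% by the same rules. Among CD8 T cells of AML replicate 3 it was 121 of 193, or 62.7%, against 2.21% to 6.02% elsewhere. Among its CD4 T cells without Foxp3 it was 10 of 30. Cells with Foxp3, the factor of regulatory T cells, were cycling at 14.3% to 29.4% in the other 5 libraries, from 12 to 42 cells each, and at 0 of 12 in AML replicate 3 (exact 95% upper bound 26.5%).

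The mean share in AML minus that in normal libraries was 12.4 percentage points, and -1.07 without AML replicate 3. With this spread 0 of 34 members passed edgeR's test in T cells and 0 passed DESeq2; the count under an unadjusted p of 0.05 was 0 as well, against 8.55% of all genes. No gene at all of 10806 passed (0% rose and 0% fell). With all libraries 13 of 34 estimates were below 0, and 29 of 34 when T cells were taken from clusters. Without AML replicate 3 it was 33 of 34. The members are read in the same cells, so these signs are not separate support. Without AML replicate 3, 7 members fell, against 0.827% of 11126 genes. These were Tyms, Rrm2, Pclaf, Hist1h2ae, Nusap1, Stmn1 and Tuba1b, with log2 changes from -1.54 to -0.78. Pclaf then stood at 136, 107 and 96.6 CPM in normal and 59.5 and 47.5 CPM in AML libraries, and Rrm2 at 42.5, 36.3 and 27.4 against 14.1 and 9.58.

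In alveolar macrophages, marked by Siglecf and Car4, the 3 normal libraries lay close together and the AML libraries spread to both sides of them. The cycling share was 5.11%, 7.39% and 6.30% in normal and 11.1%, 1.76% and 4.604% in AML libraries. Top2a held 75.5, 89.7 and 88.3 CPM against 153, 19.96 and 51.97 CPM, and Pclaf 33.1, 59.8 and 52.9 CPM against 85.6, 22.7 and 31.03 CPM. In both genes AML replicate 1 was above and AML replicates 2 and 3 below all normal libraries.

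Of the 34 members 0 passed edgeR's test in alveolar macrophages and 0 passed DESeq2, 1 had an unadjusted p under 0.05 (9.72% of all genes did), and 0% of 11425 genes rose or fell. That 1 was Mcm3, at 47.4, 40.4 and 38.1 CPM in normal and 38.5, 23.5 and 27.4 CPM in AML libraries (log2 change -0.46, SE 0.17, edgeR adjusted p = 0.482). Without AML replicate 1, 33 of 34 estimates were below 0, and still 0 passed.

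The other classes gave no call by edgeR. The cDC1 shares above overlapped between groups, and of 29 members tested 0 passed and 2 had an unadjusted p under 0.05, as did 7.79% of all genes there (0.0158% of 6325 genes rose). In B cells 12 of 27 members had an unadjusted p under 0.05 and 0 passed, with 10.3% of 10807 genes under that unadjusted p and 0% called. With B cells taken from clusters it was 3 of 27, against 10.2%. There Mki67 stood at 0.829, 3.58 and 6.99 CPM in normal and 42.7, 17.4 and 7.81 CPM in AML, and Birc5 at 0.276 to 1.79 against 3.55 to 13.7 CPM.

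For nonclassical monocytes 0 of 20 members passed and 2 had an unadjusted p under 0.05 (22.2% of all genes did), while 2.18% of 10946 genes rose and 1.57% fell. DESeq2 called 1 member there, and 0 in cDC1, B cells, neutrophils, endothelium and mature dendritic cells. Of 8 members tested in neutrophils 0 passed and 1 was under 0.05 unadjusted, as were 12.8% of all genes (0% of 7465 genes rose). The counts were 0 and 2 of 10 in endothelium, where 1.31% of 9153 genes rose and 0.404% fell, and 0 and 1 of 6 in mature dendritic cells, where 0% of 4871 rose. There 17.5% and 4.54% of all genes had an unadjusted p under 0.05.

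Small classes were not tested. Late neutrophil precursors (Ngp, Camp and Ltf) were 1 cell in the normal libraries, and 7 of 13, 1 of 20 and 15 of 60 of them were cycling in the AML libraries. Dendritic cells of type 2 were cycling at 4 of 28, 6 of 30 and 2 of 98 in AML, and at 0 of 10, 0 of 17 and 5 of 80 in normal lungs. Plasma cells were cycling at 2 of 2, 0 of 1 and 3 of 17 in normal libraries, and at 1 of 1 and 0 of 11 in AML replicates 1 and 3. Ungated cells made up 37.5% of the cycling cells of AML replicate 3 and 2.30% to 24.4% in the other libraries, so the cycling cells of AML replicate 3 are described only in part.

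Among all cycling cells, alveolar macrophages made up 61.3%, 58.4% and 30.4% in the normal libraries and 35.6%, 3.19% and 8.09% in AML. T cells made up 14.9% to 22.9% in each of the 6. Classical monocytes were 0% to 1.84% in normal and 5.75%, 23.9% and 8.80% in AML libraries. These shares follow the number of cells of each class as well as how many of them cycle.

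The phase of cycling cells was read from the split of their UMIs between the replication, histone and mitosis members. Replication members are also found where few cells cycle. Nonclassical monocytes, 0% to 1.44% cycling, held 117 to 135 CPM of them and 22.3 to 87.6 CPM of mitosis members. Phase shares of different classes can carry such a background. In alveolar macrophages the mitosis members took 50.1%, 51.98% and 54.8% of these UMIs in normal libraries, and 51.3% and 59.6% in AML replicates 1 and 3 (AML replicate 2 had 6 cycling cells). The means were 52.3% ± 2.33 (SD, n = 3) and 55.5% ± 5.89 (SD, n = 2), so they differed by less than the spread. Replication members took 23.0% to 33.5% there. In T cells the mitosis share was 36.8%, 47.7% and 54.1% in normal and 63.7%, 31.3% and 48.0% in AML libraries, with group means of 46.2% ± 8.78 and 47.7% ± 16.2 (SD, n = 3 each).

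In AML replicates 2 and 3 the classical monocytes stood at 55.2% and 54.9% mitosis UMIs, NK cells at 33.6% and 55.0%, and late neutrophil precursors of replicate 3 at 73.0%. The histone members took 51.0% in the NK cells of AML replicate 2, the highest of the libraries with at least 10 cycling cells of a class shown in the phase plot. NK cells of normal replicate 2 leaned to replication, at 59.5% of 11 cells' UMIs. Since the histone share moved by library in several classes (40.0%, 33.0% and 16.0% in normal T cells), it is not read as phase alone.

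By cell, 73.3% of 300 cycling alveolar macrophages held UMIs of both S phase and mitosis members, 13.7% of S phase only and 13% of mitosis only. Of 333 T cells 84.7% held both. Of 150 NK cells 20.7% held S phase members only and 4% mitosis only, and of 129 classical monocytes 9.30% and 20.9%. The median cell had 42.9% mitosis UMIs in NK cells, 47.6% in T cells, 50.0% in alveolar macrophages and 66.7% in classical monocytes, pooled over libraries and with no test. The pooled cells of each class came from different libraries, and the order changed within them. In AML replicate 3 the medians were 57.1%, 45.45%, 59.9% and 56.35% for the classes in that order. In AML replicate 2 they were 33.3% in NK cells, 23.1% in T cells and 71.4% in classical monocytes. NK cells of AML replicate 3 held S phase members only and mitosis only in 7.25% each.

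**Figure D4:**
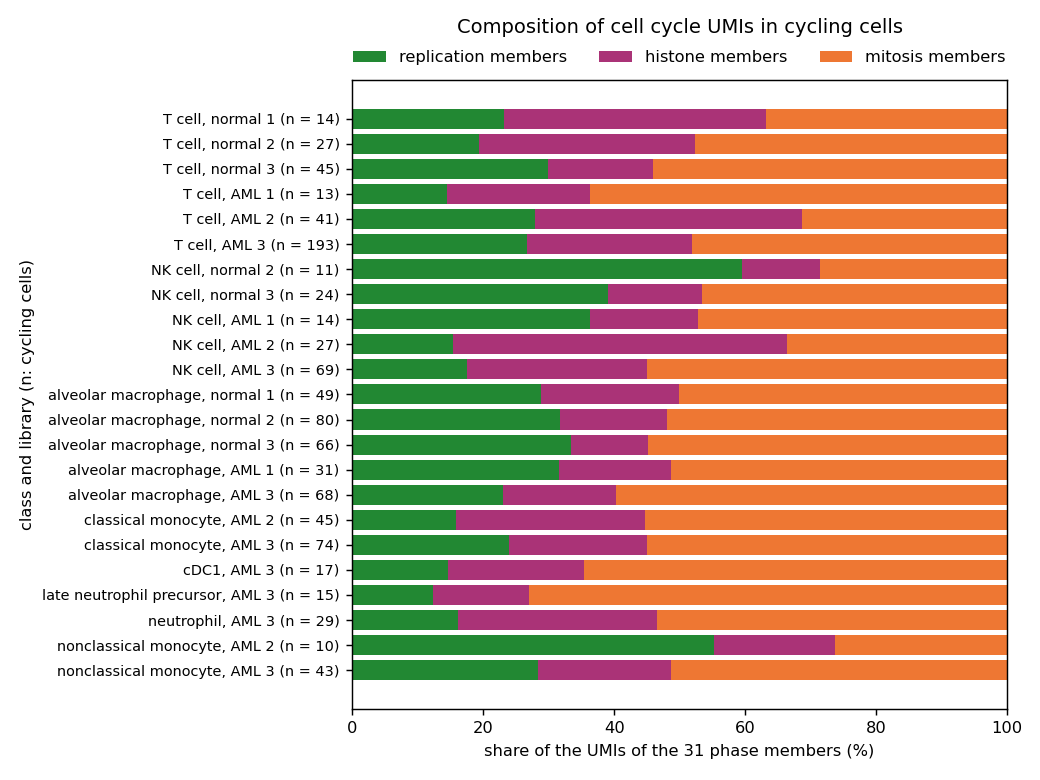
Share of the UMIs of the 31 phase members (x axis, percent) that came from replication, histone and mitosis members in cycling cells, for each class and library with at least 10 such cells (y axis, n is the number of cells). In alveolar macrophages the mitosis part stays between 50.1% and 59.6%. In T cells it runs from 31.3% to 63.7%.

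Within cycling cells, single members were seen in a part of the cells at 1000 UMIs. Mki67 was found in 52.7% of cycling alveolar macrophages, 49.0% of T cells, 50.7% of NK cells and 50.4% of classical monocytes. Pclaf was in 40.3%, 47.8%, 32.0% and 32.6% of the same classes. Hist1h2ae, an H2A histone gene, was in 18.7% of cycling alveolar macrophages and 46.0% of T cells. Mcm6 was in 13% of alveolar macrophages, 21.6% of T cells, 24.7% of NK cells and 5.43% of classical monocytes. Pcna was in 39.0% of alveolar macrophages and 18.6% of classical monocytes. These members helped to choose the cells, so the values are descriptions.

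What else sets cycling alveolar macrophages apart was measured on genes outside the 34 members, in the 5 libraries with at least 20 cycling cells (AML replicate 2 had too few). Cycling and other cells of a library were summed, and edgeR's test was run with the library as a block. Of 10741 genes 18.8% rose and 19.3% fell in cycling cells. The cells were chosen by cycle genes, so the direction of genes that go with those follows in part from the choice.

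All 12 tested genes of origin licensing and firing, 13 of 13 of replication and nucleotide supply and 15 of 15 further mitosis genes rose, with median log2 differences of 2.67, 3.02 and 5.50. Tk1 (thymidine kinase) was at 157 CPM ± 19.1 in cycling and 7.53 ± 0.696 in other cells (SD, n = 5). Kif11 was at 232 ± 30.7 against 1.34 ± 0.632 CPM, and Knl1 at 263 ± 30.4 against 2.39 ± 1.10 CPM (SD, n = 5). In all 5 libraries each of these was higher in cycling cells. Fold changes of genes near 0 in the other cells depend on the fit's prior count.

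The G1 cyclins split. Ccne1 and Ccne2, the E-type cyclins of S phase entry, rose by 4.26 (SE 0.31) and 4.38 (SE 0.19) on the log2 scale, in 4 and 5 of 5 libraries. Ccnd3 was at 302 ± 130 CPM in cycling and 572 ± 201 CPM in other cells (log2 difference -0.96, SE 0.07, edgeR adjusted p = 3.27e-10), and Ccnd2 at 302 ± 35.3 against 518 ± 72.2 CPM (SD, n = 5, log2 difference -0.77, SE 0.09). Both D-type cyclins were lower in cycling cells in 5 of 5 libraries. Cdk4 (1.18, SE 0.11) and Cdk2 (1.39, SE 0.14) rose and Cdk6 fell (-0.38, SE 0.07). All of these are on the CPM scale. Cycling cells held 1.14 to 1.501 times the median UMIs of the others, so small falls need not hold per cell.

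Of 5 tested CDK inhibitors 4 rose and 0 fell, among them Cdkn2c (p18) at 40.3 ± 19.4 against 1.02 ± 0.213 CPM and Cdkn1a (p21) at 423 ± 107 against 329 ± 31.04 CPM (SD, n = 5). Of 12 E2F, RB and mitotic transcription factor genes 10 rose. E2f7 and E2f8, repressing E2F factors, were at 86.1 and 66.8 CPM in cycling and 0.868 and 0.167 CPM in other cells, and Foxm1, a driver of mitotic genes, at 58.6 and 0.449 CPM. Rb1 did not pass (0.10, SE 0.09). Of 5 tested p53 targets Mdm2 fell in CPM (-0.35, SE 0.11) and 0 rose.

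In CPM, 9 of 10 alveolar macrophage markers fell in cycling cells, and Marco did not pass. The carbonic anhydrase Car4 was at 200 ± 55.8 against 340 ± 87.3 CPM (SD, n = 5, log2 difference -0.74, SE 0.08) and Plet1 at 685 ± 110 against 1082 ± 83.5 CPM (-0.65, SE 0.06). These markers served to gate the cells, so cells with little of them were not in the class. Cycling cells also held more RNA, with a median UMI count 1.14 to 1.501 times that of the others. Per cell, the summed UMIs of the 10 markers were 0.949 to 1.09 times those of other cells, so per cell the sum was nearly equal. The sum is weighted to the most abundant markers, and single markers, Car4 and Plet1 among them, were not counted per cell.

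Receptor genes for myeloid growth factors fell on the CPM scale. Csf2rb, the shared chain of the GM-CSF receptor, was at 234 ± 43.6 against 393 ± 39.1 CPM (SD, n = 5, log2 difference -0.73, SE 0.07), Csf2ra changed by -0.47 (SE 0.09), Csf1r by -0.46 (SE 0.11) and Csf3r by -0.61 (SE 0.16). Csf3r was also on the neutrophil marker list. These 4 genes were among 6 tested of the growth factor receptor list, and each was lower in 5 of 5 libraries. Their UMIs per cell were not computed. Myc, a growth regulator, did not pass (-0.38, SE 0.17, edgeR adjusted p = 0.078).

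**Figure D5:**
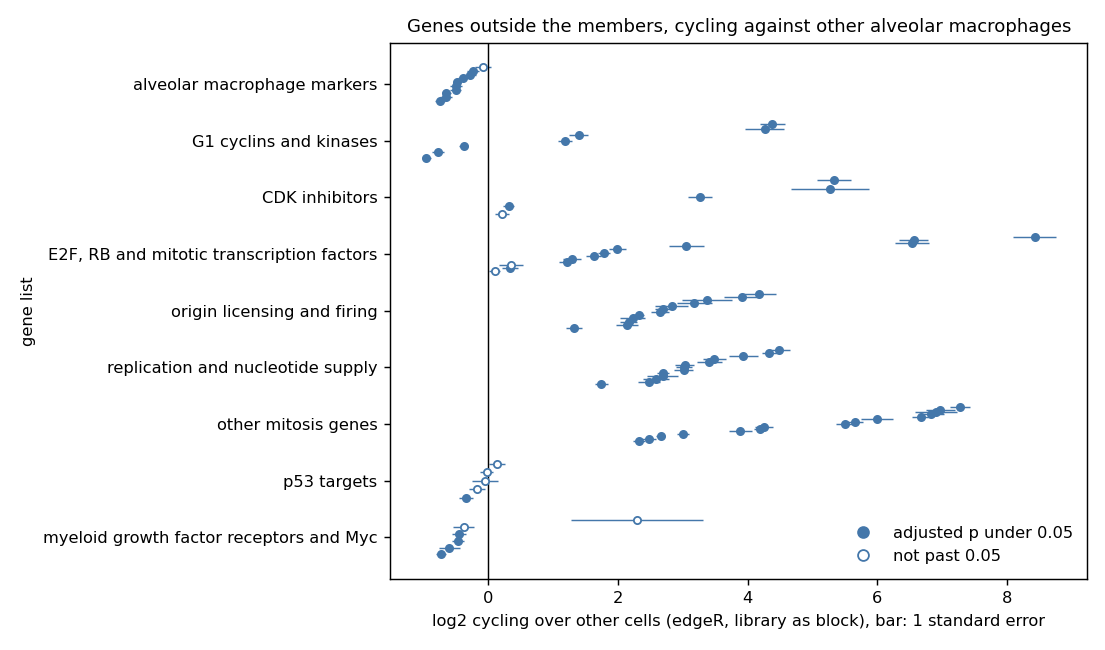
Log2 difference between cycling and other alveolar macrophages (x axis, bars 1 standard error of edgeR with library as block, n = 5 libraries) for genes outside the 34 members, by list (y axis). Filled points passed an adjusted p of 0.05. Further mitosis genes lie between 2.32 and 7.27, and alveolar macrophage markers between -0.74 and -0.09.

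Cycling T cells were compared with other T cells in the same way in 4 libraries, a comparison added after the data were seen. Of 7788 genes 18.8% rose and 20.4% fell, 39.2% in all. Ccnd3 was at 443 ± 233 CPM in cycling and 2110 ± 787 CPM in other T cells (SD, n = 4, log2 difference -2.37, SE 0.24), and Myc at 4.94 ± 4.70 against 20.6 ± 2.95 CPM. Both were lower in 4 of 4 libraries. Of 4 tested CDK inhibitors Cdkn2c (3.55, SE 0.46) and Cdkn2d (1.21, SE 0.41) rose, Cdkn1b (p27) fell (-0.64, SE 0.18), and Cdkn1a did not pass. Ccne1 rose by 3.55 (SE 0.43), and all 40 genes of the licensing, replication and further mitosis lists rose. Of the T cell markers Trac (0.53) and Trbc2 (0.68) rose, Bcl11b fell (-0.72), and Cd3d, Cd3e, Cd3g, Lat and Cd5 did not pass. Cycling T cells had 1.08 to 3.50 times the median UMIs of other T cells.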

How the data were processed

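The authors deposited UMI count matrices (genes by cell barcodes) per library. Per the submitters' processing notes, the counts were made with Cell Ranger 7.0.0 on mm10; further settings are not given in the sources used here. Barcodes under 200 genes or 500 UMIs, or with 10% or more mitochondrial UMIs, were dropped (71634 of 73095 stayed), and 1345 doublets predicted by Scrublet were left out. In 3 libraries Scrublet's own threshold marked under 0.5% of cells, and the median threshold of the other 3 was used.

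Each cell was gated by fixed marker lists: the list with the highest score was taken if at least 2 of its markers were detected and the second score was at most 0.6 of the first. This rule was set after seeing the data. The members and lists were chosen with earlier results of these data known.

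Raw counts were summed per library and class (at least 20 cells) and tested with edgeR 4.0.16 (filterByExpr, TMM, quasi-likelihood, Benjamini-Hochberg over all genes tested); DESeq2 1.42.0 was an alternative. The test was also run on counts simulated from its own fitted model. That run does not show how the test behaves with an outlying library such as AML replicate 3. Values per library are CPM, the share of a gene in all UMIs of the class. A floor is 3 counts of the total, and intervals are exact at 95%. All 34 members are named. Further cell cycle genes were named if among the 3 smallest p-values per list past the threshold, or if always listed (Ccnd1, Ccnd2, Ccnd3, Cdkn1a, Cdkn1b and Myc), and other genes outside the members named here were chosen after their values were seen. Libraries of a group differed by more than sampling noise (chi-square per degree of freedom 4.61 to 47.3 in 2 classes). In bulk sums of a class, more dividing cells and more cycle RNA per cell cannot be told apart. The labels do not say whether shared replicate numbers pair the libraries, and the main test did not pair them.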

Additional observations from a re-analysis of the deposited data

How the results depend on the processing

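Values are given as main, then alternative. Of members called between AML and normal libraries, classical monocytes gave 21, then 10 with doublets kept, 7 with classes from clusters and 1 without cells holding a primary granule UMI (chosen after seeing the data). Without the filter on low counts, NK cells gave 13 in place of 0, endothelium 4, and cDC1, mature dendritic cells and nonclassical monocytes 1 each. With the replicate block, NK cells gave 1, endothelium 2 and nonclassical monocytes 1. The labels do not say whether shared numbers pair the libraries. Deviations from the group means of same-numbered libraries correlated at 0.303, -0.0192 and 0.438 in alveolar macrophages. In neutrophils it was 0.429, -0.000854 and 0.542, and in T cells 0.0337, -0.0667 and 0.0628. These values do not settle whether the libraries are paired. DESeq2 and classes from clusters gave 1 each in nonclassical monocytes. Leaving out 1 library gave 0 to 30 in classical monocytes, 0 to 7 in T cells, 0 to 2 in B cells, endothelium and nonclassical monocytes, and 0 to 1 in NK cells. For the difference in cycling share (percentage points, AML minus normal), classical monocytes went from 4.38 to 2.08 at 500 UMIs, 6.87 at 2000, 8.79 not thinned, 5.80 at 2 or more UMIs, 2.33 at 5 or more, 2.27 by clusters and 1.44 without granule-UMI cells. At 2000 UMIs, B cells went from 0.738 to 2.88, NK cells from 5.28 to 10.4 and cDC1 from 2.43 to 8.21. Not thinned, where the share depends in part on depth, alveolar macrophages went from -0.444 to -23.3. The sign then turned in nonclassical monocytes (0.412 to -8.33), neutrophils (0.569 to -0.216), B cells (-5.90), NK cells (-7.47) and cDC1 (-8.42). At 2 or more UMIs it turned in nonclassical monocytes (-0.725) and B cells (-0.00343), and by clusters B cells stood at 0.0100. The cause was not tested. The other 202 values moved by less than 1 SD between libraries, or, for counts, stayed within 1.5 times; the 4089 genes called in cycling macrophages are among them (3280 to 4106 leaving out 1 library). Within 1 SD the sign could still turn: alveolar macrophages stood at 0.386 at 5 or more UMIs and cDC1 at -0.184 at 500 UMIs, and T cells went from 12.4 to 6.81 at 500 UMIs and 4.85 not thinned. The T cell difference in mitosis share went from 1.51 to -7.82 at 5 or more UMIs. Leaving out 1 library, the share difference ran from -1.07 to 19.4 in T cells, -3.09 to 1.59 in alveolar macrophages, -0.0888 to 4.597 in cDC1 and -0.0333 to 0.686 in nonclassical monocytes, and the mitosis share from -6.49 to 9.69 in T cells and -0.969 to 7.36 in alveolar macrophages. The 21 called monocyte members kept their sign in every alternative that gave a value, with 143 such values past the threshold and 113 short of it. The alternatives share libraries, so the constant sign is not separate support. Depth limits AML replicate 3 most.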
